A study of Mus musculus with 23 samples.

Results

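The genes described are 45 nuclear genes of mitochondrial respiration in the mouse. They encode 16 subunits listed under complex I of the respiratory chain, 4 of complex II, 6 of complex III with cytochrome c, 6 of complex IV, 2 of the ATP synthase and 8 enzyme subunits of the tricarboxylic acid (TCA) cycle, and the remaining 3 are regulators of mitochondrial gene expression. The members were chosen by name and not by a cut on their measured values, though with earlier results of these data known. Of the 45, 44 had a probe that could be named and tested, among 13720 genes tested and 18217 genes named on the array. Fh1, which encodes fumarase, matched no probe by its RefSeq accession and has no value here.

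RNA was measured on 23 one-colour Agilent arrays of 22 samples. They comprised 9 B cell lymphoma lines, established from tumour-bearing spleens of Atm knockout mice and grown in suspension. The lines were set against 6 spleens without tumour from Atm knockout mice, all female, and 7 spleens from Atm wild-type mice, 4 male and 3 female. Every mouse, controls included, also lacked Cd3e, which T cells need for their antigen receptor, and all were of a C57BL/6 x 129 background; ages and the sex of the lines were not given in the sources used here. Atm is the kinase that responds to breaks in both DNA strands. The pair of arrays of lymphoma line 8 was averaged to 1 value. The lines are cultured cells while the spleens are whole tissue, so malignancy, culture and cell makeup cannot be told apart in any comparison of the lines with the spleens.

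The TCA cycle oxidises acetyl groups in the mitochondrial matrix and passes the electrons to complexes I and II. Complexes I, III and IV pump protons as electrons move to oxygen, ubiquinone and cytochrome c carry electrons between them, and the ATP synthase uses the proton gradient to make ATP. Most of these proteins are encoded in the nucleus, and their genes are known targets of the factors NRF1, GABP (an ETS factor) and the oestrogen-related receptors, with the PGC-1 coactivators Ppargc1a and Ppargc1b acting on those factors.

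Promoter sequence is shown for 4 genes that frame the results, namely the gene with the largest rise, the cytochrome c gene, a gene that holds 3 of the 4 motifs searched, and Tfam, the packaging and transcription factor of mitochondrial DNA. The windows are RefSeq's, of mouse build GRCm38.p6, and run from 250 bases before to 50 after the annotated start. Capitals mark matches to the motifs NRF1 (GCGCANGCG), ETS (CCGGAAG), YY1 (AAGATGG) and oestrogen-related receptor (TCAAGGTCA), each searched on both strands, and no capitals means that none of these letters was found in the window.
Suclg1: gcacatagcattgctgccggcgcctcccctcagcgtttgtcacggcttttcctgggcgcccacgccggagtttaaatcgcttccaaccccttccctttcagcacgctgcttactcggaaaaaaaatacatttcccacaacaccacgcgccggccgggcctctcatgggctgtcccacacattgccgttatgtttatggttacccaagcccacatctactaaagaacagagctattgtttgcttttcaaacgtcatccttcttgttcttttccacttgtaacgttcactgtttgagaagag
Cycs: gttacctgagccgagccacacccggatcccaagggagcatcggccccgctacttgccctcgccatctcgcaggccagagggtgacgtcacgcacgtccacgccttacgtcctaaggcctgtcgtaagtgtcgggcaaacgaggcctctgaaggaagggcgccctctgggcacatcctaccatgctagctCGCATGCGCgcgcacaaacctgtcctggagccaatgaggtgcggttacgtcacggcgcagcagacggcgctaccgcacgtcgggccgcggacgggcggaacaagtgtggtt
Sdhd: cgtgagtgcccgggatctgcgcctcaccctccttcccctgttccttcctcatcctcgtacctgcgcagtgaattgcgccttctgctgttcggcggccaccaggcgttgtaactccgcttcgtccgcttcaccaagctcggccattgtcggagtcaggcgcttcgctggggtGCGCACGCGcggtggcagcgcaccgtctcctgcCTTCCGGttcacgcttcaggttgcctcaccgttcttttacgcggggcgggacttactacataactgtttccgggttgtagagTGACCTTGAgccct
Tfam: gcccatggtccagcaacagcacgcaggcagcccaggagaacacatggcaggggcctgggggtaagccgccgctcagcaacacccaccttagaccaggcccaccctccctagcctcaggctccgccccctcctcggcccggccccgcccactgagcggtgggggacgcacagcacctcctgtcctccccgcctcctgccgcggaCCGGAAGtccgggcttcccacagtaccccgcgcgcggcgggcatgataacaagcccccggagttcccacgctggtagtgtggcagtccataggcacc

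The Suclg1 window is on the plus strand at chr6:73248255-73248554. Those of Cycs at chr6:50566520-50566819, Sdhd at chr9:50603800-50604099 and Tfam at chr10:71237995-71238294 are on the minus strand and are printed in the direction of transcription. In Cycs the NRF1 match began 61 bases before the start, in Sdhd the NRF1 match 79 and the ETS match 46 bases before it, and in Tfam the ETS match 47 bases before it. The table held a window for 34 of the 45 members. The NRF1 motif was present in 9 of these 34 (26.5%), against 13.6% of the 10997 tested genes with a window and 7.03% of all 27025 genes in the table. The ETS motif was present in 6 of 34 (17.6%), near the 18.2% of tested genes. The YY1 motif was present in 2 of 34 (5.88%, against 8.14% of tested genes) and the receptor motif in 1 of 34 (2.94%, against 0.309%), namely Sdhd. The 9 genes with the NRF1 motif, without regulators, had a median log2 difference between lines and knockout spleens of 0.67, with a range of -0.02 to 1.26, and the 22 without it also had a median of 0.67, with a range of 0.32 to 1.66. These matches are descriptions of letters, not of bound sites.

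Respiratory chain and TCA genes were higher in the lymphoma lines than in spleens of either genotype, most of them by less than 1 log2 unit. The PGC-1 coactivators Ppargc1a and Ppargc1b were lower. Of these coactivators, Ppargc1a was well above background in only 2 of the 9 lines. It was tested because of its detection in the spleens, so the direction of its fall was largely set in advance. Its fall against knockout spleens did not pass the test with normexp background correction. Against Atm knockout spleens 38 of 44 members rose, 2 fell and 4 did not pass the test (limma, Benjamini-Hochberg adjusted p under 0.05 over all 13720 genes). Against Atm wild-type spleens 39 rose, 2 fell and 3 did not pass. Differences between lines and spleens were common among all genes: 70.0% were called in either direction against knockout spleens, 40.4% higher and 29.6% lower, and 71.0% against wild-type spleens, 39.3% higher and 31.7% lower. The median log2 difference of the 44 members was 0.66 against knockout spleens and 0.74 against wild-type spleens, where the median of all genes was 0.15 and 0.11. The lines and the knockout spleens did not overlap for 26 members, all of them higher in the lines, where 23.1% of all genes lay apart in that direction and 17.3% in the other. Against wild-type spleens 26 members lay apart as higher (23.1% of all genes) and 1 as lower, Ppargc1b (18.5%). Both comparisons use the same 9 lines and are given side by side. On each array the 75th percentile of the signal is 0 on the log2 scale of levels, and levels of different genes are not compared because each probe has its own response.

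The size of the rise depended on the scaling of the arrays. With quantile normalisation the median of the members was 0.25 against knockout spleens and 0.34 against wild-type spleens, where all genes had 0.14 and 0.13. Against knockout spleens 23 of 44 members were then called higher, beside 5449 of all 13720 genes. Of the 38 that rose, 11 then missed the threshold with a difference still above 0, and 4, Ndufs3, Ndufv1, Uqcrc1 and Cyc1, had a difference below 0. With normexp background correction 29 of 44 members were called higher against knockout spleens, beside 4266 of all 13720 genes. Ndufa4, Ndufb5, Ndufs3, Ndufv1, Uqcrb, Uqcrc1, Cyc1, Cox4i1 and Cox8a missed the threshold there, with differences of 0.23 to 0.44. With each array centred on its median the members had a median of 1.28 against knockout spleens and all genes 0.77. Against knockout spleens the members' median exceeded that of all genes by 0.10 to 0.56 over these and the other settings tried.

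**Figure D1:**
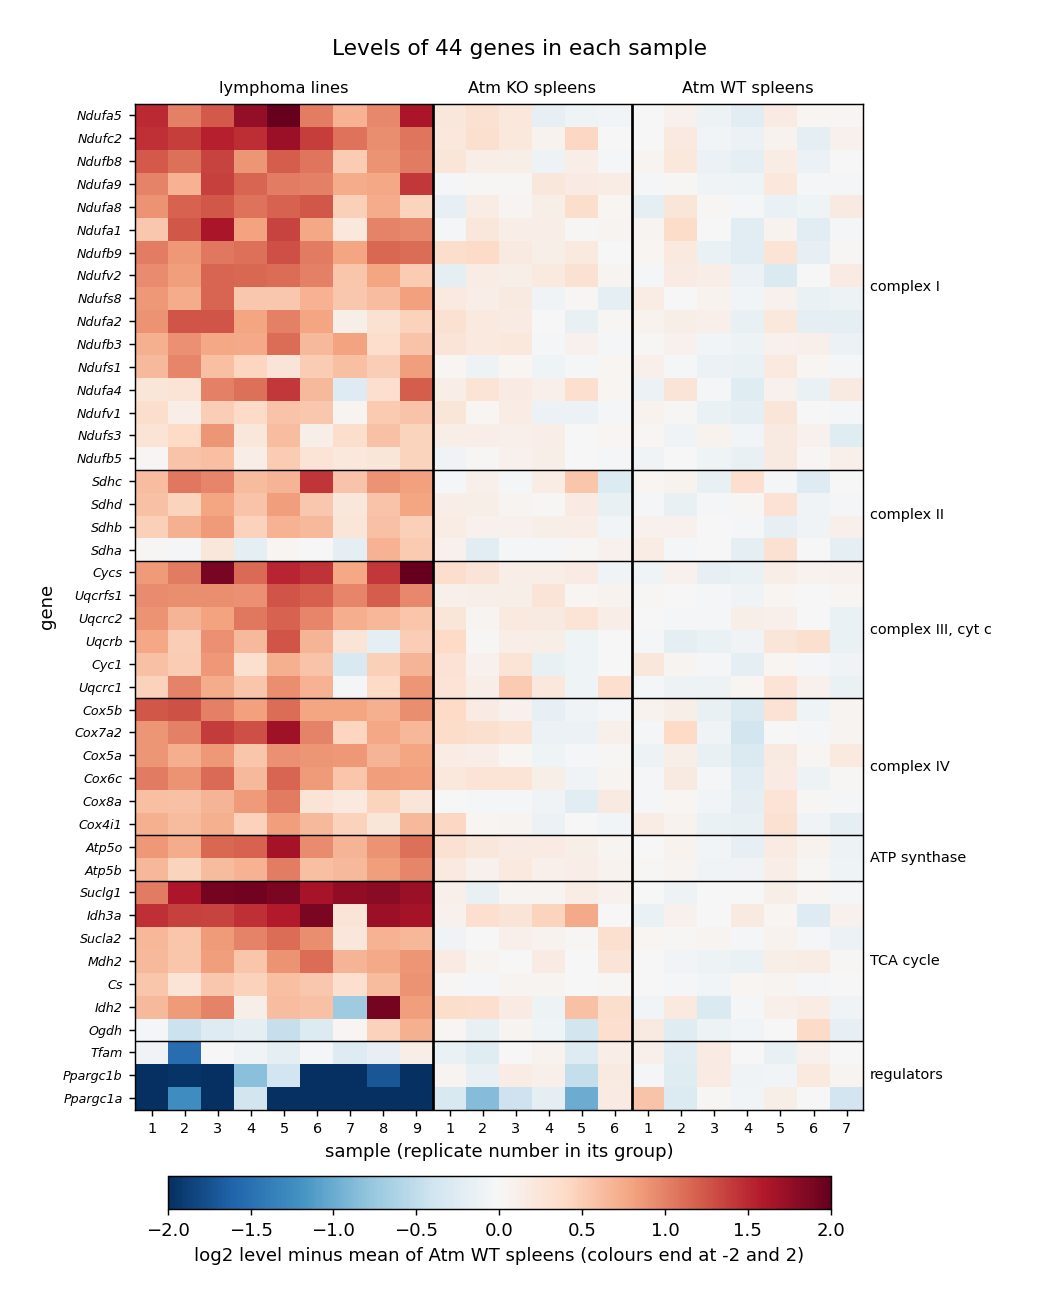
Level of each of the 44 genes (rows, by role) in each of the 22 samples (columns), as log2 level minus the mean of the Atm WT spleens, with red for higher and blue for lower. The 9 lymphoma lines are red for nearly all subunit genes and blue for Ppargc1a and Ppargc1b; under quantile normalisation Ndufs3, Ndufv1, Uqcrc1 and Cyc1 were below the Atm KO spleens instead. Ppargc1a was well above background in only 2 of the 9 lines.

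All 16 genes listed under complex I, which takes electrons from NADH, rose against both groups of spleens, by 0.32 to 1.26 against knockout spleens with a median of 0.73, and by 0.33 to 1.34 with a median of 0.83 against wild-type spleens. Ndufa4 is counted here as listed, although its protein is now assigned to complex IV. Ndufa5, a subunit of the arm that faces the matrix, was measured at 4.74, 5.28 and 6.24 (lowest, median and highest) in the lines, against 3.89, 4.13 and 4.35 in knockout spleens and 3.85, 4.07 and 4.22 in wild-type spleens. All 9 lines lay above all 13 spleens, and Ndufa5 was higher by 1.26 ± 0.17 (SE, adjusted p = 1.31e-06) against knockout spleens, a 2.39-fold difference. Ndufc2, a small membrane-arm subunit, had 5.13, 5.59 and 5.92 in the lines, against 4.20, 4.41 and 4.62 in knockout spleens and 4.03, 4.19 and 4.39 in wild-type spleens. Its groups did not overlap either, at a difference of 1.13 ± 0.11 (SE, adjusted p = 9.91e-09). Ndufb8, another membrane-arm subunit, had 5.28, 5.84 and 6.12 in the lines, against 4.66, 4.89 and 5.02 in knockout spleens and 4.59, 4.78 and 4.99 in wild-type spleens. It rose by 0.95 ± 0.11 (SE, adjusted p = 9.03e-08) against knockout spleens. Ndufa9, a subunit at the junction of the 2 arms, had 4.81, 5.12 and 5.54 in the lines, against 4.09, 4.21 and 4.35 in knockout spleens and 4.04, 4.09 and 4.33 in wild-type spleens. It rose by 0.93 ± 0.11 (SE, adjusted p = 9.23e-08), again with no overlap.

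Among the other 12 complex I genes, Ndufs1, Ndufs8 and Ndufv2, which carry iron-sulphur clusters of the electron path, rose by 0.61, 0.68 and 0.79 against knockout spleens. Ndufa8, Ndufa1 and Ndufb9 rose by 0.85, 0.85 and 0.84, and Ndufa2 and Ndufb3 by 0.68 and 0.63. The smallest differences in the complex were those of Ndufb5 (0.32, adjusted p = 0.00408), Ndufs3 (0.34, adjusted p = 0.0041) and Ndufv1, the subunit that binds NADH (0.38, adjusted p = 0.00159), and the lines overlapped the knockout spleens for each of these 3. Under quantile normalisation Ndufs3 and Ndufv1 were at -0.01 and -0.07, and Ndufs1, Ndufa2, Ndufb3 and Ndufb5 missed the threshold, at 0.21, 0.22, 0.20 and 0.15. Ndufa4 varied most among the lines, from 3.83 in line 7 to 5.50, and its difference of 0.49 (adjusted p = 0.0314) was close to the threshold: leaving out any of lines 3, 4, 5 or 9 or any of knockout spleens 1, 4 or 6 gave differences of 0.39 to 0.48 with an adjusted p of 0.0514 to 0.0599. It was 0.04 under quantile normalisation (adjusted p = 0.864) and 0.39 with normexp (adjusted p = 0.149).

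Complex II, the succinate dehydrogenase that belongs to both the TCA cycle and the chain, rose in 3 of its 4 subunits. Sdhc, a membrane anchor, had 2.45, 2.71 and 3.31 in the lines, against 1.61, 1.92 and 2.43 in knockout spleens and 1.61, 1.88 and 2.22 in wild-type spleens. It was 0.77 ± 0.13 higher against knockout spleens (SE, adjusted p = 2.93e-05), with the lowest line just above the highest knockout spleen. The other anchor, Sdhd, had 3.45, 3.80 and 4.06 in the lines, against 3.07, 3.31 and 3.40 in knockout spleens and 3.07, 3.20 and 3.52 in wild-type spleens, and rose by 0.54 ± 0.09 (SE, adjusted p = 2.93e-05). The iron-sulphur subunit, Sdhb, had 3.70, 4.04 and 4.31 in the lines, against 3.41, 3.56 and 3.61 in knockout spleens and 3.30, 3.47 and 3.56 in wild-type spleens, and rose by 0.48 ± 0.08 (SE, adjusted p = 2.83e-05). Under quantile normalisation Sdhb missed the threshold (0.12, adjusted p = 0.191). Both genes lay above all knockout spleens, and Sdhd overlapped the wild-type spleens through its lowest line and wild-type spleen 5. Sdha, the flavoprotein that oxidises succinate, did not pass the test: it had 1.45, 1.66 and 2.34 in the lines, against 1.44, 1.63 and 1.73 in knockout spleens and 1.44, 1.63 and 1.94 in wild-type spleens. Its 3 groups overlapped, and its differences were 0.14 ± 0.13 (SE, adjusted p = 0.337) against knockout and 0.12 ± 0.12 (SE, adjusted p = 0.372) against wild-type spleens. A second Sdha probe gave 0.54 and 0.58, and the mean of the 2 probes passed the test, at 0.34 (adjusted p = 0.0137) and 0.35 (adjusted p = 0.0082).

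In complex III and cytochrome c all 6 genes rose, by 0.39 to 1.19 against knockout spleens. Cycs encodes cytochrome c, the carrier between complexes III and IV that is also released when cells undergo apoptosis. It had 4.80, 5.44 and 6.13 in the lines, against 3.96, 4.18 and 4.38 in knockout spleens and 3.86, 4.10 and 4.15 in wild-type spleens. The lines stood above all spleens, by 1.19 ± 0.16 (SE, adjusted p = 1.21e-06) against knockout spleens, a 2.29-fold difference, and by 1.35 ± 0.16 against wild-type spleens. The other 2 Cycs probes gave smaller differences, of 0.69 and 0.72 against knockout and 0.70 and 0.76 against wild-type spleens. Uqcrfs1, the Rieske iron-sulphur protein, had 4.74, 4.78 and 5.09 in the lines, against 3.87, 3.94 and 4.08 in knockout spleens and 3.76, 3.84 and 3.86 in wild-type spleens. The narrow spread of each group gave this difference of 0.92 ± 0.07 one of the lowest adjusted p among the members (2.39e-10). Uqcrc2, a core protein, had 5.20, 5.45 and 5.82 in the lines, against 4.70, 4.83 and 4.92 in knockout spleens and 4.51, 4.63 and 4.76 in wild-type spleens, a difference of 0.66 ± 0.09 (SE, adjusted p = 1.13e-06) with no overlap, which missed the threshold under quantile normalisation (0.19, adjusted p = 0.0592). Uqcrb had 2.56, 3.39 and 4.00 in the lines, against 2.66, 2.81 and 3.14 in knockout spleens and 2.56, 2.67 and 3.06 in wild-type spleens. Its groups overlapped and it rose by 0.49 ± 0.16 (SE, adjusted p = 0.00835), and it missed the threshold under quantile normalisation (0.20, adjusted p = 0.196) and with normexp (0.35, adjusted p = 0.145). Cyc1, the cytochrome of complex III, and Uqcrc1, the other core protein, rose by 0.42 and 0.39 with overlapping groups, and stood at -0.04 and -0.06 under quantile normalisation.

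All 6 genes of complex IV, the cytochrome c oxidase, rose, by 0.54 to 0.90 against knockout spleens. Cox5b had 6.44, 6.66 and 7.0 in the lines, against 5.56, 5.75 and 6.13 in knockout spleens and 5.44, 5.78 and 6.01 in wild-type spleens. It was higher by 0.90 ± 0.11 (SE, adjusted p = 3.18e-07) against knockout spleens. Cox7a2 had 4.25, 4.82 and 5.52 in the lines, against 3.71, 4.01 and 4.20 in knockout spleens and 3.46, 3.81 and 4.23 in wild-type spleens, a difference of 0.87 ± 0.16 (SE, adjusted p = 5.45e-05). Neither gene's lines overlapped the spleens, although for Cox7a2 the lowest line and the highest wild-type spleen were nearly level. Cox5a had 6.12, 6.43 and 6.49 in the lines, against 5.48, 5.60 and 5.71 in knockout spleens and 5.28, 5.61 and 5.76 in wild-type spleens, and rose by 0.76 ± 0.09 (SE, adjusted p = 7.48e-08). Cox6c had 5.32, 5.61 and 5.92 in the lines, against 4.69, 4.92 and 5.04 in knockout spleens and 4.54, 4.74 and 4.94 in wild-type spleens, and rose by 0.74 ± 0.10 (SE, adjusted p = 8.27e-07). These 2 also lay apart. Cox8a (0.58) and Cox4i1 (0.54) rose less, and both missed the threshold under quantile normalisation, at 0.11 and 0.12.

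Both ATP synthase genes rose. Atp5o, a subunit of the stalk that joins the membrane and catalytic parts, had 5.46, 5.73 and 6.44 in the lines, against 4.84, 4.94 and 5.08 in knockout spleens and 4.62, 4.80 and 4.94 in wild-type spleens, and rose by 0.85 ± 0.11 (SE, adjusted p = 1.01e-06). Atp5b, the catalytic beta subunit, had 6.94, 7.16 and 7.51 in the lines, against 6.56, 6.60 and 6.69 in knockout spleens and 6.40, 6.52 and 6.63 in wild-type spleens, and rose by 0.59 ± 0.08 (SE, adjusted p = 1.6e-06). The lines lay above all spleens for both genes. Further Atp5b probes gave larger differences, of 0.88 and 0.81 against knockout spleens.

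The TCA cycle was less uniform. Against knockout spleens 5 of its 7 measured genes rose, and 6 did against wild-type spleens. Suclg1, the alpha subunit of succinyl-CoA ligase, had the largest rise of all members: 4.86, 5.59 and 5.75 in the lines, against 3.66, 3.88 and 3.96 in knockout spleens and 3.71, 3.81 and 3.93 in wild-type spleens. Its lowest line was well clear of its highest spleen, and it was 1.66 ± 0.11 higher against knockout spleens (SE, adjusted p = 8.98e-12), a 3.16-fold difference, and 1.71 ± 0.10 higher against wild-type spleens (SE, adjusted p = 2.19e-12). Under quantile normalisation this was 1.23 against knockout spleens. Sucla2, the beta subunit that pairs with it to make ATP, had 3.34, 3.82 and 4.23 in the lines, against 3.04, 3.17 and 3.44 in knockout spleens and 3.01, 3.15 and 3.19 in wild-type spleens, and rose by 0.67 ± 0.11 (SE, adjusted p = 1.09e-05) against knockout spleens. Its lines overlapped the knockout spleens but not the wild-type ones. It was the only 1 of the 13 members with several tested probes whose probes disagreed in sign, since a second, dimmer Sucla2 probe gave -0.16 against knockout and -0.13 against wild-type spleens.

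Idh3a, the catalytic subunit of the NAD-dependent isocitrate dehydrogenase, had 1.76, 2.97 and 3.38 in the lines, against 1.52, 1.80 and 2.25 in knockout spleens and 1.24, 1.54 and 1.68 in wild-type spleens. It rose by 1.10 ± 0.18 against knockout spleens (SE, adjusted p = 1.18e-05), where only line 7 fell within the range of the spleens. Mdh2, mitochondrial malate dehydrogenase, had 7.48, 7.68 and 8.05 in the lines, against 6.92, 7.04 and 7.19 in knockout spleens and 6.80, 6.92 and 7.08 in wild-type spleens, and rose by 0.66 ± 0.09 (SE, adjusted p = 8.47e-07) with no overlap. Cs, citrate synthase, which starts the cycle, rose by 0.51 ± 0.08 (SE, adjusted p = 5.67e-06) with its lines above all spleens, but stood at 0.02 under quantile normalisation (adjusted p = 0.787), while a second Cs probe gave 0.86 against knockout and 0.93 against wild-type spleens. Idh2, the NADP-dependent mitochondrial isocitrate dehydrogenase, had -1.59, -0.24 and 1.03 in the lines, against -0.99, -0.54 and -0.30 in knockout spleens and -1.18, -0.93 and -0.68 in wild-type spleens. The lines spanned the range of both groups of spleens, and Idh2 passed the test against wild-type (0.65 ± 0.23, SE, adjusted p = 0.017) and not against knockout spleens (0.37 ± 0.24, SE, adjusted p = 0.184). Against wild-type spleens the call was lost with normexp (0.36, adjusted p = 0.162) and with slide as a term (0.64, adjusted p = 0.065). Against knockout spleens Idh2 passed without line 7 (0.54, adjusted p = 0.0154), with arrays centred on their median (0.99, adjusted p = 0.00336) and without the slide that held only lines (0.35, adjusted p = 0.0289). Ogdh, the first enzyme of the 2-oxoglutarate dehydrogenase complex, had 0.23, 0.49 and 1.40 in the lines, against 0.33, 0.67 and 1.03 in knockout spleens and 0.46, 0.63 and 1.08 in wild-type spleens. Its groups overlapped and its differences of -0.02 ± 0.16 (SE, adjusted p = 0.906) and -0.05 ± 0.16 (SE, adjusted p = 0.792) did not pass. The Ogdh call turned on the setting: with arrays centred on their median the differences were 0.59 and 0.55, both called higher, and with slide as a term they were -0.30 (adjusted p = 0.0482) and -0.29 (adjusted p = 0.0424), both called lower.

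**Figure D2:**
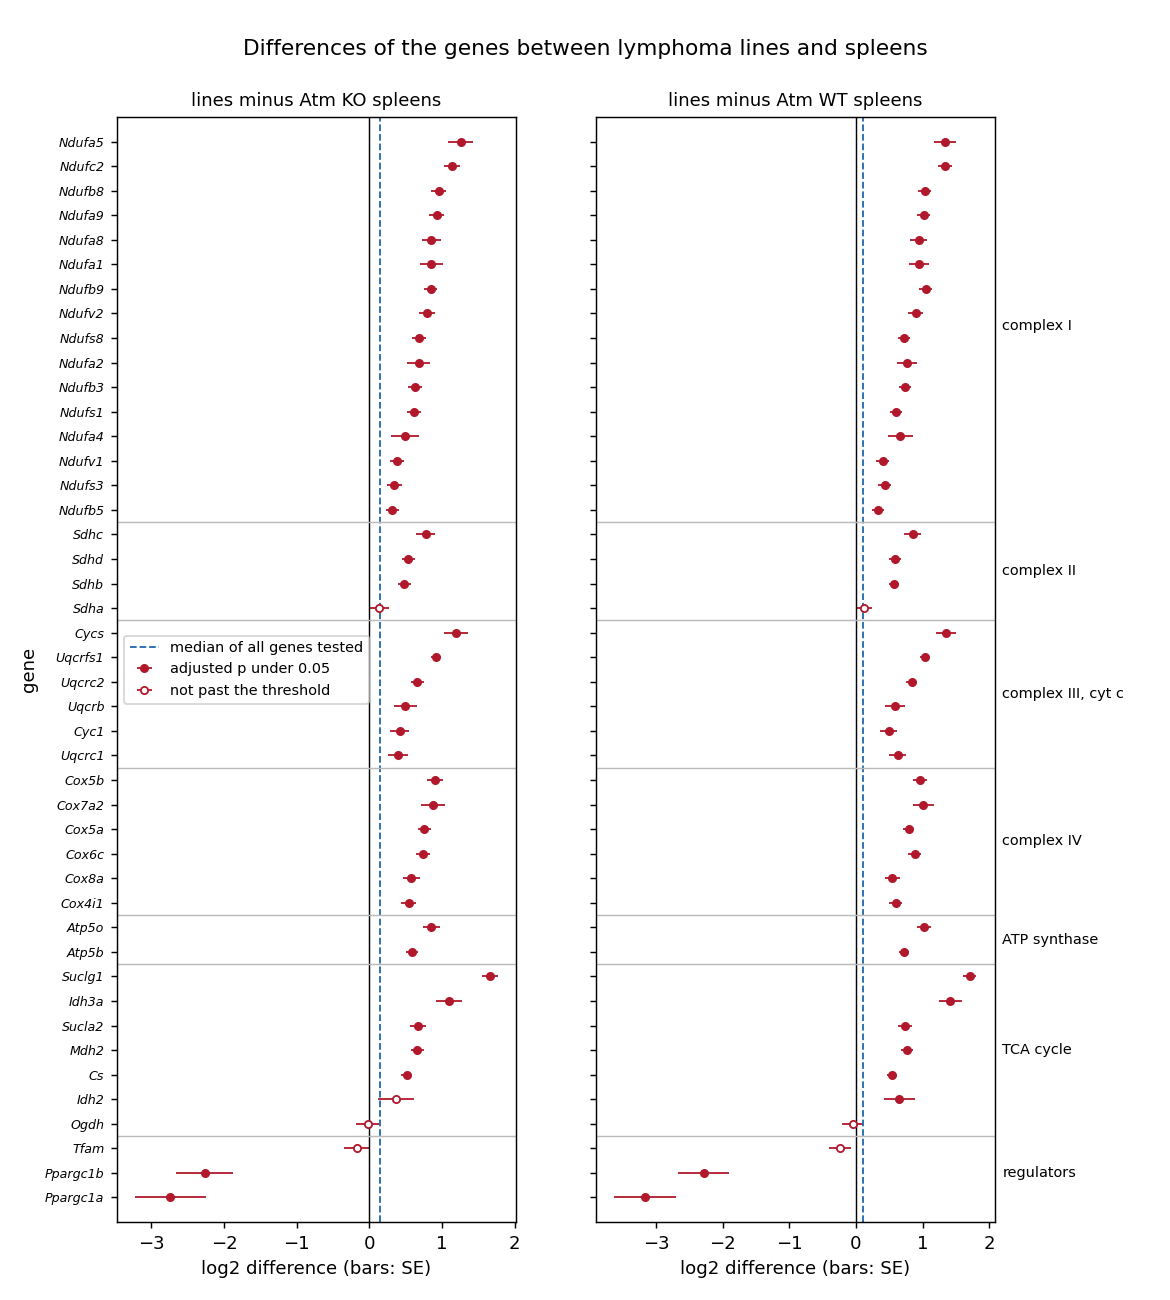
Log2 difference of each gene (points, bars SE) between the 9 lymphoma lines and the 6 Atm KO spleens (left) or the 7 Atm WT spleens (right), filled where the adjusted p was under 0.05; the dashed line is the median of all genes tested, 0.15 and 0.11. Subunit genes lie to the right of 0 except Ogdh, and Ppargc1a and Ppargc1b lie far to the left. Under quantile normalisation Ndufs3, Ndufv1, Uqcrc1 and Cyc1 moved to just left of 0 against the Atm KO spleens. The position of Ppargc1a is set by signals near background, as its probe was well above background in only 2 of the 9 lines.

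The regulators went the other way or did not pass the test. Ppargc1b, which encodes PGC-1beta, had -3.24, -1.61 and 0.45 in the lines, against 0.36, 0.91 and 1.02 in knockout spleens and 0.59, 0.80 and 1.03 in wild-type spleens. Of the 9 lines only line 5 reached the knockout spleens and none reached the wild-type spleens. It fell by 2.26 on the log2 scale against knockout spleens (SE 0.39, adjusted p = 2.85e-05) and by 2.29 against wild-type spleens (SE 0.38, adjusted p = 1.29e-05), and a second probe gave -2.07 and -2.01. Ppargc1a, which encodes PGC-1alpha, had -7.81, -7.07 and -3.67 in the lines, against -4.29, -3.66 and -3.14 in knockout spleens and -3.68, -3.30 and -2.74 in wild-type spleens. Lines 2 and 4, at -4.54 and -3.67, had the highest levels of the lines and the other 7 lay below -6. It fell by 2.74 against knockout spleens (SE 0.49, adjusted p = 3.52e-05) and by 3.17 against wild-type spleens (SE 0.46, adjusted p = 2.69e-06). Its probe was well above background in 2 of the 9 lines and in all 13 spleens, so the size of this fall is set by signals near background. That probe passed the filter through the spleens, so the direction of the fall was largely set in advance. With normexp background correction the difference from knockout spleens was -0.38 (adjusted p = 0.391). The other 43 tested members were well above background in all 22 samples. Tfam had 2.50, 3.95 and 4.16 in the lines, against 3.77, 3.96 and 4.15 in knockout spleens and 3.81, 4.03 and 4.19 in wild-type spleens. Its medians were nearly equal and only line 2 stood low, and the differences of -0.17 ± 0.18 (SE, adjusted p = 0.411) and -0.24 ± 0.17 (SE, adjusted p = 0.216) did not pass. A second Tfam probe gave -0.43 against knockout and -0.19 against wild-type spleens. The sign of Tfam turned with the scaling, at 0.45 against knockout spleens with arrays centred on their median (adjusted p = 0.0568), and at -0.53 with quantile normalisation, which passed (adjusted p = 0.00793).

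**Figure D3:**
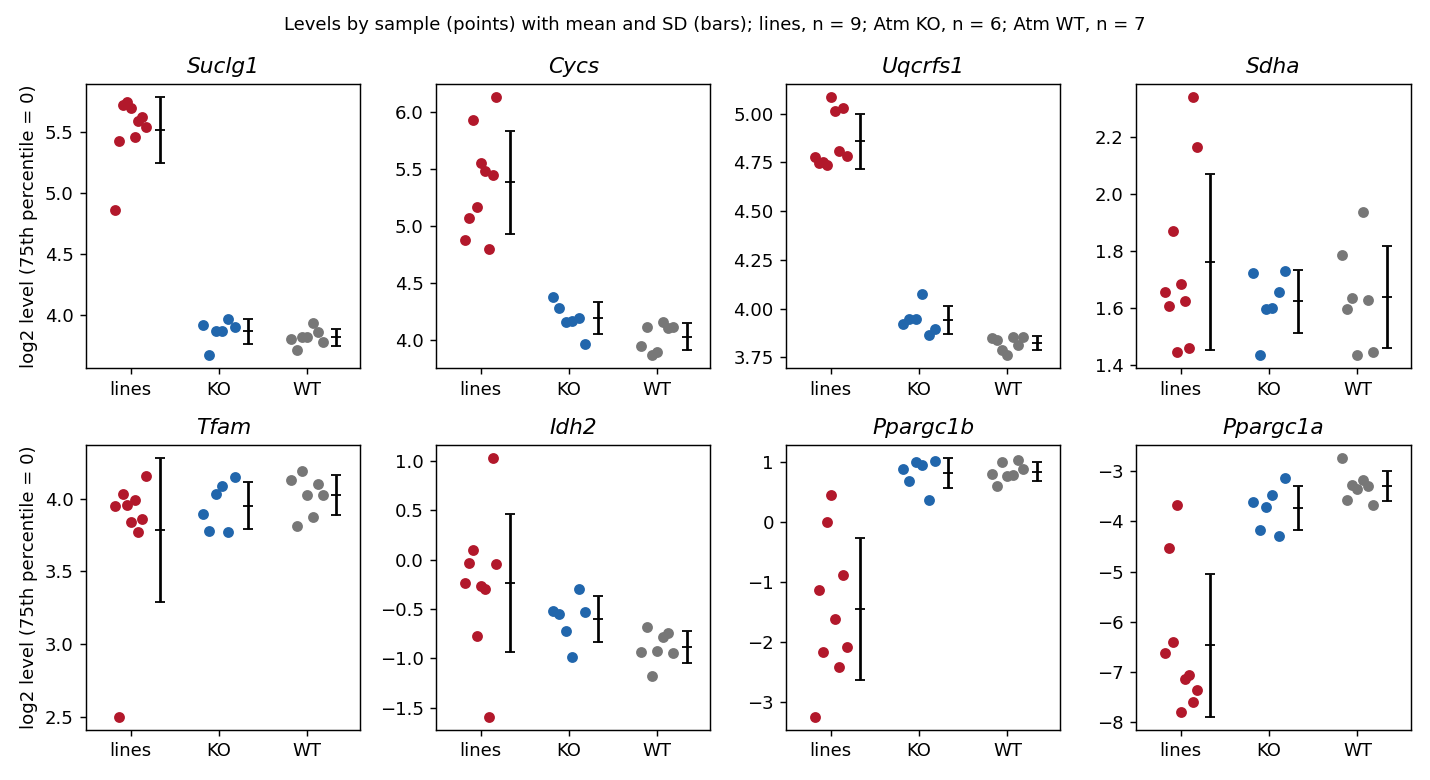
Log2 level of 8 genes in each sample (points) with the mean and SD of each group beside them, for 9 lymphoma lines, 6 Atm KO and 7 Atm WT spleens; each panel has its own axis, relative to the 75th percentile of the array at 0. Suclg1, Cycs and Uqcrfs1 separate the lines from all spleens, Sdha and Idh2 overlap, Tfam is low in line 2 only, and Ppargc1a and Ppargc1b spread widely among the lines. Ppargc1a was well above background in only 2 of the 9 lines, so its spread there is partly that of signals near background.

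The lines differed among themselves more than the spleens did. The median SD of the 44 members was 0.26 among the lines, against 0.14 among knockout and 0.14 among wild-type spleens; over all genes these were 0.44, 0.23 and 0.21. The SD was larger in the lines than in knockout spleens for 43 of 44 members and larger than in wild-type spleens for 41. The most variable members among the lines were Ppargc1a (SD 1.43), Ppargc1b (1.18), Idh2 (0.70), Ndufa4 (0.55) and Tfam (0.50). Leaving the regulators aside, line 5 was the highest line for 18 of 41 genes and line 3 for 10, while line 7 was the lowest for 20. The mean level of these 41 genes was 4.33 in line 7, 4.87 in line 3 and 4.91 in line 5, with the other 6 lines between 4.64 and 4.75. Line 5 also had the highest Ppargc1b of the lines and the lowest Ppargc1a. The order of the lines was taken under the 75th percentile scaling alone. The array of line 5 had the lowest 75th percentile of signal of all arrays (477).

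The arrays lay on 6 slides, of which 1 held only lines 7, 8 and 9, so comparisons were repeated within the other 5, each with 1 or 2 lines. Within slides the median difference of the 41 genes without regulators was 0.57 to 0.90 against knockout spleens, and 39 of the 41 were above 0 on all 5 slides. Ppargc1b was lower in the lines on every one of these slides, with differences of -4.13 to -0.79, and so was Ppargc1a, with differences of -3.02 to -0.60. Signals near background limit the sizes given for Ppargc1a. Its probe passed the filter through the spleens, so its lower level on each slide was largely set in advance and adds no separate support. With slide as a term in the fit the median of all 44 members was 0.72 against knockout spleens.

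The other nuclear genes of the same pathway mostly rose too. Of 229 further genes in 10 lists, 203 rose and 5 fell against knockout spleens, and 201 rose and 7 fell against wild-type spleens. Of all genes tested, 40.4% were called higher and 29.6% lower against knockout spleens, and 39.3% and 31.7% against wild-type spleens. Under quantile normalisation 159 of the 229 rose and 9 fell against knockout spleens, where 5449 of all 13720 genes rose and 4215 fell. Of 21 other complex I subunits 20 rose (median 0.78; 13 under quantile normalisation), among them Ndufv3 at 1.57 and Ndufab1, the mitochondrial acyl carrier protein, at 1.14. All 9 other subunits of complexes III and IV rose, led by Cox7c (1.14), Uqcr10 (1.09) and Uqcrq (0.76). Of 11 other ATP synthase subunits and its inhibitor 10 rose, led by Atp5j (0.97), Atp5j2 (0.94) and Atp5c1, the rotating gamma subunit (0.79). Under quantile normalisation 4 of these 11 rose, a share no larger than that of all genes. These lists had medians above that of all genes, as the members did.

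Genes that encode tissue isoforms stood out for 1 subunit. Cox7a1, the isoform of the Cox7a subunit typical of heart and skeletal muscle, had 1.73, 2.63 and 3.84 in the lines, against -1.80, -1.52 and -1.26 in knockout spleens and -1.38, -1.13 and -0.97 in wild-type spleens. It was well above background in all 22 samples, and rose by 4.20 ± 0.21 (SE, adjusted p = 1.29e-13) against knockout spleens. Of the 7 genes tested in this list, which counts the Atp5g genes of the ATP synthase among the isoforms, 5 rose. Among them were Atp5g2 (0.84) and Cox4i2, the lung isoform. Cox4i2 was well above background in 5 of 9 lines, no knockout spleen and 3 wild-type spleens, so no size is given for its difference. Cox6b2, the testis isoform, fell by 1.19 (adjusted p = 0.000611) against knockout spleens and was at -0.55 (adjusted p = 0.0701) against wild-type spleens. With arrays centred on their median its difference from knockout spleens was -0.58 (adjusted p = 0.061).

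Assembly factors of the chain rose in 30 of 34 genes (median 0.66). Sco1, a copper chaperone of complex IV, had 0.18, 0.36 and 0.96 in the lines, against -2.13, -1.94 and -1.80 in knockout spleens and -1.94, -1.71 and -1.44 in wild-type spleens. Its rise of 2.42 ± 0.12 (SE, adjusted p = 6.51e-14) was larger than that of any of the 44 members. Ttc19, a complex III factor, and Nubpl, which delivers iron-sulphur clusters to complex I, rose by 2.13 and 1.64. For all 3 the lines lay above every spleen.

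Among 21 further enzymes and carriers around the cycle 17 rose and 1 fell against knockout spleens. The citrate carrier Slc25a1 rose by 1.57, the mitochondrial aspartate aminotransferase Got2 by 1.40 and the pyruvate carrier subunit Mpc2 by 1.30, whereas its partner Mpc1 fell by 0.45 (adjusted p = 0.00355). Mpc1 had 2.59, 3.11 and 3.74 in the lines, against 3.36, 3.55 and 3.74 in knockout spleens, so the groups overlapped, and the difference was 0.17 (adjusted p = 0.351) with arrays centred on their median. Idh1, the cytosolic isocitrate dehydrogenase, fell by 0.48 against wild-type spleens (adjusted p = 0.0106) and had -0.16 against knockout spleens (adjusted p = 0.391); with arrays centred on their median these were 0.12 (adjusted p = 0.495) and 0.45 (adjusted p = 0.0207), and under quantile normalisation -0.02 (adjusted p = 0.913) and 0.32 (adjusted p = 0.0846). Of the kinases and phosphatases of pyruvate dehydrogenase 3 were tested: the inhibitory kinases Pdk3 and Pdk1 rose by 1.40 and 1.03, and the activating phosphatase Pdp1 fell by 0.27 (adjusted p = 0.0433). The fall of Pdp1 was not kept under either other scaling, at 0.34 with arrays centred on their median (adjusted p = 0.0213, called higher) and 0.01 under quantile normalisation (adjusted p = 0.966).

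Mitochondrial transcription and biogenesis genes were mixed, with 12 of 20 rising and 1 falling (median 0.52) against knockout spleens. Under quantile normalisation 10 of the 20 rose and 2 fell. Slirp, an RNA-binding protein that stabilises mitochondrial transcripts, Polg, the mitochondrial DNA polymerase, and Mterf4 rose by 1.41, 1.33 and 1.11. Esrra, the oestrogen-related receptor alpha that works with the PGC-1 coactivators, had 1.14, 1.32 and 1.67 in the lines, against 2.10, 2.45 and 2.54 in knockout spleens and 2.56, 2.74 and 2.94 in wild-type spleens. All 9 lines were below all spleens, and Esrra fell by 0.98 (SE 0.10, adjusted p = 3.35e-08) against knockout and by 1.32 (adjusted p = 1.15e-10) against wild-type spleens. Against wild-type spleens 4 genes of this list fell, of which Sirt1, a deacetylase of PGC-1alpha, was at -0.51 and Polrmt, the mitochondrial RNA polymerase, at -0.38; against knockout spleens these had -0.28 and -0.11 and did not pass. With arrays centred on their median Sirt1 was at 0.09 and Polrmt at 0.22 against wild-type spleens, neither past the threshold. Esrra stayed lower there, at -0.36 against knockout (adjusted p = 0.0119) and -0.72 against wild-type spleens (adjusted p = 1.14e-05). Pprc1, also of the PGC-1 family, was at -0.02 against knockout (adjusted p = 0.902) and -0.30 against wild-type spleens (adjusted p = 0.0448). With arrays centred on their median it was called higher against knockout spleens, at 0.60 (adjusted p = 0.00309). It is named outside the rule for named genes. Gabpa, the DNA-binding subunit of GABP, rose by 0.88 against knockout and 1.02 against wild-type spleens, and the gene for NRF1 did not pass (0.09, adjusted p = 0.626, and -0.02, adjusted p = 0.93); these 2 were picked for the motifs above, outside the rule for named genes. Of 76 mitochondrial ribosomal protein genes 73 rose (median 0.84), led by Mrpl35 (1.84), Mrpl57 (1.78) and Mrpl1 (1.53), and Mrpl24 fell by 0.35, though it was at 0.27 (adjusted p = 0.149) with arrays centred on their median. Of 27 import and chaperone genes 25 rose (median 0.72; 15 under quantile normalisation), led by the translocase subunits Timm17a (1.39), Tomm70a (1.20) and Tomm40 (1.06).

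**Figure D4:**
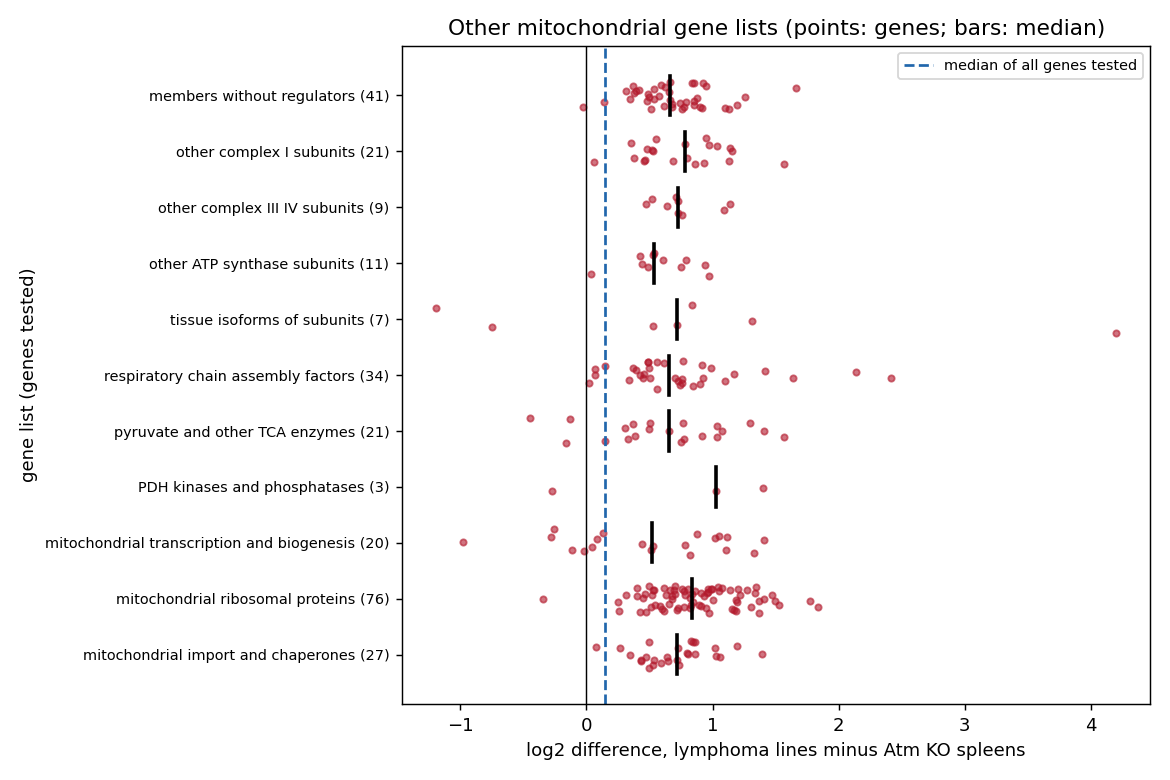
Log2 difference between the 9 lymphoma lines and the 6 Atm KO spleens for each gene (points) of the members without regulators and of 10 other mitochondrial lists, with the list median as a bar and the median of all genes tested (0.15) dashed. List medians run from 0.52 to 1.03; Cox7a1 lies far right at 4.20 and Cox6b2 far left at -1.19.

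Between genotypes the members did not differ past the threshold. Of the 44 members 0 were called in Atm knockout against wild-type spleens (limma with genotype and sex, adjusted p under 0.05), where 3.74% of all genes were (1.63% higher and 2.11% lower), and 2 had an unadjusted p under 0.05. Their differences ran from -0.35 to 0.36, with a median of 0.09 where all genes had -0.05. The 3 with the lowest p were Idh3a, which was 0.36 higher (unadjusted p = 0.0335, adjusted p = 0.204), Uqcrc2, which was 0.19 higher (unadjusted p = 0.0345, adjusted p = 0.207), and Ndufc2, which was 0.21 higher (unadjusted p = 0.085, adjusted p = 0.311). Knockout and wild-type spleens lay apart for 1 member, Uqcrfs1, by a margin smaller than the range of either group; 2.24% of all genes lay apart in that direction and 2.16% in the other. Of the 229 other genes 1 was called, Dlat, the acetyltransferase of pyruvate dehydrogenase. It had -0.19, -0.02 and 0.05 in knockout spleens, against 0.43, 0.45 and 0.81 in wild-type spleens, with no overlap and a fall of 0.70 (SE 0.11, adjusted p = 0.00641). Dlat and Idh3a lie on chromosome 9, as Atm does, and for both genes linkage to the knockout allele cannot be told apart from the effect of the genotype. The members Sdhd, Uqcrc1, Cox5a and Cox7a2 lie on chromosome 9 too. Like Idh3a they were not called between genotypes, and their differences were -0.10 to 0.16. In the lines, which carry the same knockout, Dlat had 0.69, 0.93 and 1.43, above all knockout spleens and overlapping the wild-type ones.

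Markers of other spleen cells were mostly lower in the lines, and markers of dividing cells were mostly higher. Counts of markers that rose or fell are against knockout spleens, where 40.4% of all genes were called higher and 29.6% lower. In bulk RNA fewer cells of a type and less RNA per cell cannot be told apart. Well above background in 3 lines or fewer were 11 of 12 neutrophil, 7 of 10 NK cell, 6 of 11 macrophage, 5 of 10 erythroid, 5 of 8 platelet and 3 of 10 T cell markers. Such markers passed the filter through the spleens, so their fall was largely set in advance and their levels in most lines are near background. All 12 B cell markers were well above background in all 9 lines. Their mean level was 4.03 to 4.63 in the lines, against 4.06 to 4.56 in knockout and 4.06 to 4.58 in wild-type spleens. Of the 12, 4 rose and 2 fell against knockout spleens, shares no larger than the 40.4% and 29.6% of all genes. Erythroid markers fell in 9 of 10 genes, with a mean level of -5.91 to -4.31 in the lines, against -0.14 to 3.13 in knockout and -0.22 to 2.35 in wild-type spleens, and 2 of the 10, Rhag among them, were not well above background in any line. Neutrophil markers fell in 12 of 12 genes, with means of -8.20 to -5.59 in the lines, against 1.45 to 4.51 in knockout and 1.13 to 5.00 in wild-type spleens; Lcn2, Elane, Mmp8, Mmp9 and Retnlg were not well above background in any line. Macrophage markers fell in 10 of 11 genes, with means of -5.52 to -4.05 in the lines, against 2.15 to 2.96 in knockout and 2.21 to 3.04 in wild-type spleens; Mertk, Cd163 and Fcgr1 were not well above background in any line. The ranges of the B cell mean overlapped among the 3 groups, and those of the erythroid, neutrophil and macrophage means lay below all spleens in the lines.

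NK cell markers fell in 10 of 10 genes, with means of -7.67 to -5.30 in the lines, against 0.80 to 1.60 in knockout and 1.46 to 1.95 in wild-type spleens; Klrk1, Eomes, Gzmb and Klra8 were not well above background in any line. Platelet markers fell in 7 of 8, with means of -6.65 to -5.82 in the lines, against -1.38 to -0.93 in knockout and -1.10 to -0.54 in wild-type spleens; Pf4, Ppbp, Gp9, Gp5 and Treml1 were not well above background in any line. T cell markers fell in 7 of 10 and rose in 2, Cd3g and Cd3d, the largest rise being 7.32 against knockout and 7.27 against wild-type spleens. Their means, which mix these opposite changes, were -4.39 to -2.94 in the lines, against -1.85 to -1.35 in knockout and -1.98 to -1.57 in wild-type spleens. Of the 10, 5 were well above background in all lines, and Cd8a, Thy1 and Trat1 were not in any line. Proliferation markers rose in 10 of 11, where 40.4% of all genes were called higher against knockout spleens. Their means were 3.01 to 4.50 in the lines, against 1.61 to 2.51 in knockout and 1.05 to 2.28 in wild-type spleens. The part of cell makeup and of proliferation in the differences of the members was not tested.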

How the data were processed

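The authors deposited scanner files of 1-colour Agilent arrays, whose spot intensity values Agilent Feature Extraction 10.7.1.1 had background-subtracted and corrected, per the file headers. The authors also deposited a value table of log2 values, used here only as an alternative setting: each of its 41174 probes was centred to a median of 0 (tolerance 1e-04), differences between its arrays correlated at 0.999988 or more with those of the scanner signal, and its column medians ran from -0.21 to 0.52, so its scaling stays unknown.

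Control spots and 1556 spots flagged as uneven or outlying were left out, 0 spots were left out as saturated, and spots of a probe were averaged. Each array was divided by its 75th percentile and taken to log2. Spots well above background were 54.9% to 62.3% of an array in lines, 62.6% to 67.7% in knockout and 61.7% to 66.9% in wild-type spleens. Probes were named through their RefSeq accession in a table of assembly GRCm38.p6, and 26690 of 41174 matched. The probe with the highest mean, well above background in at least 6 of 22 samples, represented a gene. Lines were compared with spleens in a limma 3.58.1 fit (R 4.3.3) of 3 groups, and genotypes in a fit of 13 spleens with sex as a term. Benjamini-Hochberg adjustment ran over 13720 genes. The fits were tested on simulated data in which each gene had the same spread in all 3 groups. The larger spread of the lines was therefore not part of that test. The labels give each spleen and line a number of its own, and p-values measure the spread between these samples. The number of arrays limits the precision.

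The members and lists were chosen with earlier results of these data known. Levels by group are given for up to 4 called members per role with the largest difference against knockout spleens, for members called lower and for the 3 regulators. Uncalled members, members whose probes disagree, the 5 most variable members and up to 3 called genes per direction of other lists are named, and between genotypes the 3 members with the lowest p. Alternatives were median centring, quantile normalisation, normexp with an offset of 50 on the median signal (the mean signal was not used here), other filters and probe rules, slide, sex, the value table and samples left out. Genes encoded in mitochondrial DNA matched no probe and were not analysed here. Some genes that these rules would name are not reported here.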

Additional observations from a re-analysis of the deposited data

Results flagged for a closer look

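In each group of 6 to 9 samples, the gap of the highest or lowest sample to its neighbour was set against Dixon's 95% critical value. Of 132 groups of a member's values 10 passed it (7.58%), where chance flags about 1 in 20. The lines gave 5. Line 7 was lowest for Cyc1, at 4.14 where the next line had 4.76, and for Idh3a, at 1.76 where the next had 2.85. Line 5 was highest for Atp5o, at 6.44 where the next had 5.95. Line 1 was lowest for Suclg1, at 4.86 where the next had 5.42, and line 2 was lowest for Tfam, at 2.50 where the next had 3.77. Knockout spleens gave 3: spleen 6 was lowest for Sdhb (3.41), spleen 1 highest for Cox4i1 (6.85) and spleen 2 lowest for Suclg1 (3.66). Wild-type spleen 5 was highest for Ndufa9 (4.33) and for Sdhd (3.52).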

How the results depend on the processing

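With each array centred on its median, the members' median was 1.28 against knockout and 1.34 against wild-type spleens, genes called higher were 8424 and 8261, genes called lower 2598 and 2735, and 1 gene of the other lists was called lower in each comparison. Ogdh then turned to 0.59 and 0.55. With quantile normalisation the members' medians were 0.25 and 0.34, 23 members and 5449 genes were called higher against knockout spleens, and 9 and 13 genes of the other lists were called lower. Against knockout spleens Ndufs3 (-0.0105), Ndufv1 (-0.0740), Uqcrc1 (-0.0591) and Cyc1 (-0.0377) turned, and Ndufv1 (-0.0475) did against wild-type spleens. With normexp 29 members and 4266 genes were called higher, and 1 member and 2521 genes lower, against knockout spleens. With slide as a term 3 members were called lower in each comparison, and 3 against wild-type spleens without the slide that held only lines; the added member was Ogdh. When detection in all 22 samples was required, which drops Ppargc1a, 1 member was called lower in each comparison, and 2139 and 2419 genes were. Between genotypes, genes called lower were 163 with median centring, 114 with slide as a term and 172 in females alone. With normexp 2 genes were called higher and 1 lower, and the members' median was 0.35. Without the sex term 739 genes were called higher and 703 lower.

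Each of the 22 samples was also left out in turn, chosen after seeing the data. Members called higher then numbered 37 to 39 against knockout spleens and 39 throughout against wild-type spleens, with 2 called lower in both. Between genotypes 0 members were called in any of these fits, and genes called higher ranged from 75 to 355 and lower from 53 to 441. Signs that turned between values that both missed the threshold are not listed, and the causes of these changes were not tested. Probe signal near background limits the size of the difference in Ppargc1a. No paired analysis was possible because the groups share no animal or line number.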
